A study of Mus musculus with 14 samples.

Results

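The 8 fatty acid elongase and desaturase genes described here were *Elovl1*, *Elovl2*, *Elovl3*, *Elovl5*, *Fads1*, *Fads2*, *Fads3* and *Fads6*. They were taken by gene symbol from a table of 17552 hepatic genes, and all 8 were found. The livers came from male *Apoe*-deficient mice of C57BL/6 background (C57BL/6J in the methods of the study), a strain that develops fatty liver. The control group received a Western diet, and the erythrodiol group the same diet with erythrodiol, a triterpene of olive and other plants, at 10 mg/kg. Both groups were *Apoe*-deficient. The labels give an age of 8 weeks and 8 weeks of feeding for all mice, whereas the methods of the study give 12 weeks of feeding. Each group had 7 libraries, and each library was made from a pool of liver RNA of 2 or 3 mice, so that no library is a single animal. The question was whether a diet with erythrodiol changes hepatic gene expression.

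The gene table held 1 value per gene and group, the estimated read count summed over the 7 libraries of the group. There was no replicate value for any gene, so no difference below was tested, and the differences have no replicate check. The intervals given with ratios are exact 95% intervals of counting error only. They cover neither the spread between pools nor that between mice, and PCR copies of a molecule were counted as separate reads. In bulk liver RNA, fewer cells of a type and less RNA per cell cannot be told apart.

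Elongases lengthen fatty acids by a pair of carbons at a time in the endoplasmic reticulum, carrying out the first, condensing step of each round. Front-end desaturases put a new double bond between an existing one and the carboxyl end of the chain. In liver, FADS2 (delta-6 desaturase), ELOVL5, FADS1 (delta-5 desaturase) and ELOVL2 act in turn to convert the dietary essential fatty acids linoleic and alpha-linolenic acid into arachidonic acid, eicosapentaenoic acid and longer products, from which docosahexaenoic acid (DHA) is finished in peroxisomes. ELOVL1 and ELOVL3 make saturated and monounsaturated chains of very long length. FADS3 acts on sphingoid bases, and the substrate of FADS6 is not well known. Genes of this pathway are known targets of SREBP-1, of the nuclear receptors LXR and PPARalpha, and of ChREBP.

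The coding sequence shows how close the desaturases are to one another, and whether their reads can be told apart. In a 60-base window of coding sequence that encodes part of the catalytic domain, *Fads1*, *Fads2*, *Fads3* and *Fads6* had the same base at 28 positions, shown in capitals (GENCODE vM21, GRCm38, sense strand; exons joined). In *Fads1* it lay in exons 10 and 11 of 12, in *Fads2* and *Fads3* likewise, and in *Fads6* in exon 5 of 6.
Fads1: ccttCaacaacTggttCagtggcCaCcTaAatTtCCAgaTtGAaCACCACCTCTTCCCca
Fads2: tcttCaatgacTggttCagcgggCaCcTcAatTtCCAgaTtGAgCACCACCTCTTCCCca
Fads3: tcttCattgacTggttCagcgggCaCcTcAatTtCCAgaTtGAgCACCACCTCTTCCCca
Fads6: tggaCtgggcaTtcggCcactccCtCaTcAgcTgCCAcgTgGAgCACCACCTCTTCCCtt
The longest stretch without any difference was 54 bases, between *Fads2* and *Fads3*, and nearly all of it lies in this window. It was 17 bases between *Fads1* and *Fads2* and 17 bases between *Fads1* and *Fads3*. The reads were 100 bases long, and no annotated transcript of *Fads1*, *Fads2* or *Fads3* shared 100 bases with a transcript of another gene.

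Among the elongases the closest pair was *Elovl2* and *Elovl5*, which act on neighbouring chain lengths of the same pathway. Their longest identical stretch was 23 bases, and the coding window around it held 43 identical bases of 60, in capitals, across exons 4 and 5 of 8 in both genes.
Elovl2: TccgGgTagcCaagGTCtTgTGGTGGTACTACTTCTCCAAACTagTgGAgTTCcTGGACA
Elovl5: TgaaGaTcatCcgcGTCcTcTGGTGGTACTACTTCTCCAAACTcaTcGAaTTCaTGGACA
Any other pair of the 4 elongases shared at most 17 bases. *Fads6* was the exception to this separation. Its transcript shared at least 50 bases with 469 other genes and at least 100 bases with 3, the longest being 116 bases with *Spag1* on the opposite strand. The part of reads from these stretches in its counts was not tested.

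The level of the 8 genes differed widely. Counts were scaled to a total of 1000000 per group (CPM) and divided by the gene length in kilobases. On this scale of CPM per kilobase, on which genes can be compared, the control levels ran from 2.20 for *Fads3* to 163 for *Fads2*. Next below *Fads2* were *Elovl5* at 149 and *Elovl2* at 116. *Elovl3* at 87.8 and *Fads1* at 86.0 were close to each other. *Fads6* at 27.4 and *Elovl1* at 20.003 were lower. In the control group *Fads2* ranked 447 of the 17552 genes, *Elovl5* 478, and *Fads3* 8986. The 4 genes of the route from linoleic acid to its long products, *Fads2*, *Elovl5*, *Fads1* and *Elovl2*, were thus among the 5 highest of the 8, together with *Elovl3*.

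The place of *Fads2* in this order rested on the length that the table assigned to it. That length was 1508 bases, whereas the annotated RefSeq transcript in GENCODE has 3150 bases, a ratio of 0.479. For the other 7 genes this ratio lay between 0.817 for *Fads6* and 1.04 for *Elovl1*. With the GENCODE length, the *Fads2* level was 77.9 for control and 131 for erythrodiol. It then stood below *Elovl5*, *Elovl2*, *Fads1* and *Elovl3* in the control group.

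**Figure D1:**
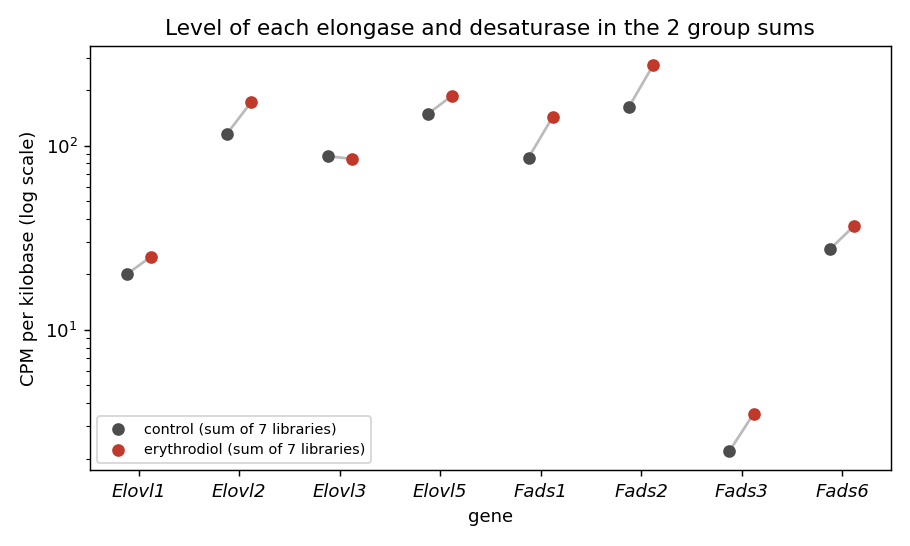
Level of each of the 8 genes in the control and erythrodiol group sums, in CPM per kilobase on a log axis; each point is 1 sum over 7 libraries, so there are no error bars. *Fads3* sits far below the others, near 2.20 in control, and every gene but *Elovl3* is higher with erythrodiol.

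With erythrodiol, 7 of the 8 genes were higher by at least 1.2-fold and none was lower by as much, after scaling each group by its total count. This has to be read against the whole table. Of the 13291 genes with at least 100 counts over both groups, 33.7% were higher by at least 1.2-fold and 11.4% lower. All 8 genes passed this minimum, which was set on the sum of both groups. At 1.5-fold, 3 of the 8 genes were higher, all of them desaturases (*Fads1*, *Fads2* and *Fads3*), beside 2.55% of all genes. None was lower, beside 3.14% of all genes. None of the 8 was 2-fold higher or lower, as 0.218% and 0.549% of all genes were. The median log2 ratio of the 8 genes was 0.49, and that of all 13291 genes was 0.16, so the whole table was shifted towards erythrodiol under this scaling. With that median set to 0, 4 of the 8 genes were past 1.2-fold (*Fads1*, *Fads2*, *Fads3* and *Elovl2*). At 1.5-fold 1 was then left, *Fads2*, barely past the limit at a log2 ratio of 0.586, with *Fads1* just under it at 0.571. With TMM factors *Fads2* was again the only one, at 0.592, with *Fads1* at 0.576. The share of all genes past these limits was not computed under either rescaling, and the shares above do not apply to it. Each rescaling moves all genes by the same amount, so their order is unchanged. Of all genes, 0.850% had a higher ratio than *Fads2* and 2.91% a higher one than *Elovl2*.

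*Fads2*, encoding the delta-6 desaturase that takes the first and slowest step of the pathway, had 30137 counts in the control sum and 51362 in the erythrodiol sum. The ratio was 1.68-fold (counting interval 1.66 to 1.70), or 0.75 on the log2 scale. Of all genes with at least 100 counts, 0.850% had a higher ratio. It is located at chr19:10062765-10101503 on the minus strand.

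*Fads1*, encoding the delta-5 desaturase, had 36633 counts in control and 61768 with erythrodiol. The ratio was 1.66-fold (1.64 to 1.68), and 0.986% of all genes had a higher one. The intervals of *Fads1* and *Fads2* overlapped, so these neighbours in the order did not differ beyond counting error. *Fads1* lies at chr19:10182877-10196874 on the plus strand.

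*Fads3*, at chr19:10040855-10060113 on the plus strand, was the least abundant gene, with 885 and 1431 counts. Its ratio of 1.59-fold had the widest interval of the 8 (1.46 to 1.73), and this overlapped those of *Fads1* and *Elovl2*. *Fads6*, at chr11:115278626-115297731, had 13635 and 18510 counts and a ratio of 1.34-fold (1.31 to 1.37). It stood below *Elovl2* and above *Elovl5*, with no overlap of intervals on either side.

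*Elovl2*, the elongase of chains of 20 and more carbons on the way to DHA, had the highest ratio of the 4 elongases. Its counts were 54740 in control and 82386 with erythrodiol, a ratio of 1.48-fold (1.467 to 1.4995), which 2.91% of all genes exceeded. It lies at chr13:41182382-41220403. *Elovl5*, which elongates chains of 18 and 20 carbons, had 51211 and 65188 counts and a ratio of 1.25-fold (1.24 to 1.27). *Elovl5* lies at chr9:77917365-77984519. *Elovl2* stood above *Elovl5* beyond counting error.

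*Elovl1*, the broadly expressed elongase that feeds sphingolipids with very long saturated chains, had 4636 and 5850 counts and a ratio of 1.24-fold (1.196 to 1.293). Its interval overlapped that of *Elovl5*. It lies at chr4:118426874-118432953. *Elovl3*, known from brown fat, sebaceous glands and male liver, was the only gene of the 8 that was not higher. It had 18903 counts in control and 18515 with erythrodiol, a ratio of 0.965 (0.946 to 0.985), and 75.8% of all genes had a higher ratio. It lies at chr19:46131897-46135694, on the same chromosome as the *Fads* cluster but far from it.

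Counting error was thus small beside most of these ratios, while the spread between pools is unknown. Each erythrodiol library held between 13.9% and 14.6% of the mapped reads of its group. Had 6 of these libraries stood at the control level, the remaining library would have needed between 5.52 and 5.75 times that level to give the *Fads1* ratio. For *Elovl2* the same figure was between 4.30 and 4.47 times, and for *Elovl1* between 2.66 and 2.75 times.

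The ratio moved with gene length over the whole table. Genes were divided by length into 10 classes of about equal size. In the shortest class, of 333 to 1211 bases, the median log2 ratio was -0.18, and in the longest, of at least 6116 bases, it was 0.33. Each gene was therefore also set against the 500 genes nearest to it in length. On this scale 4 of the 8 genes were higher by at least 1.2-fold, beside 9.53% of all genes. None was lower by as much, beside 17.7% of all genes. The median over the 8 genes was 0.27 on the log2 scale, beside 0.00 for all genes. The 4 genes were *Fads2*, *Fads1*, *Fads3* and *Elovl2*. At 1.5-fold on this scale 1 of the 8 was higher (*Fads2*) and none lower, beside 1.02% and 3.53% of all genes. With the GENCODE lengths that count was 0.

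**Figure D2:**
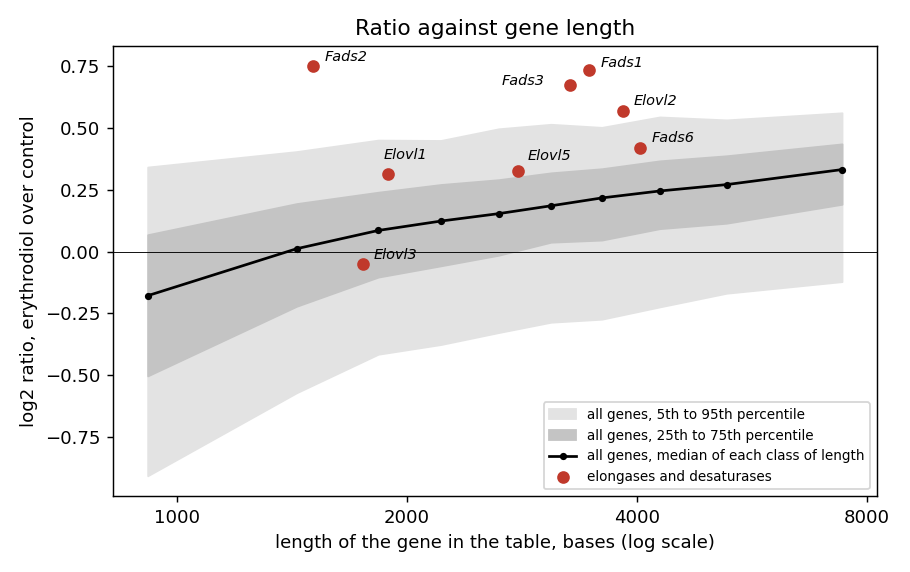
Log2 ratio of erythrodiol over control against gene length on a log axis; grey bands and the black line give all genes with at least 100 counts in 10 classes of length, red points the 8 genes. The median line climbs from -0.18 to 0.33, and *Fads2*, *Fads1*, *Fads3* and *Elovl2* lie above the band that ends at the 95th percentile.

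*Fads2* stood furthest from genes of its own length. The median log2 ratio of the 500 genes of 1429 to 1591 bases was 0.04, and *Fads2* exceeded it by 0.71, with 1 of the 500 genes above it. Set against genes of its GENCODE length, *Fads2* exceeded them by 0.57. *Fads1* exceeded the median of its like-length genes, 0.22, by 0.51, with 6 of 500 above it. *Fads3* exceeded its own by 0.47 and *Elovl2* by 0.34, each with 15 of 500 above it. *Elovl1*, *Fads6* and *Elovl5* exceeded theirs by 0.20, 0.19 and 0.18, which is within 1.2-fold. For these 3 genes between 70 and 99 of the 500 genes had a higher ratio. *Elovl3* was 0.12 below its like-length genes, and 338 of the 500 were above it.

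**Figure D3:**
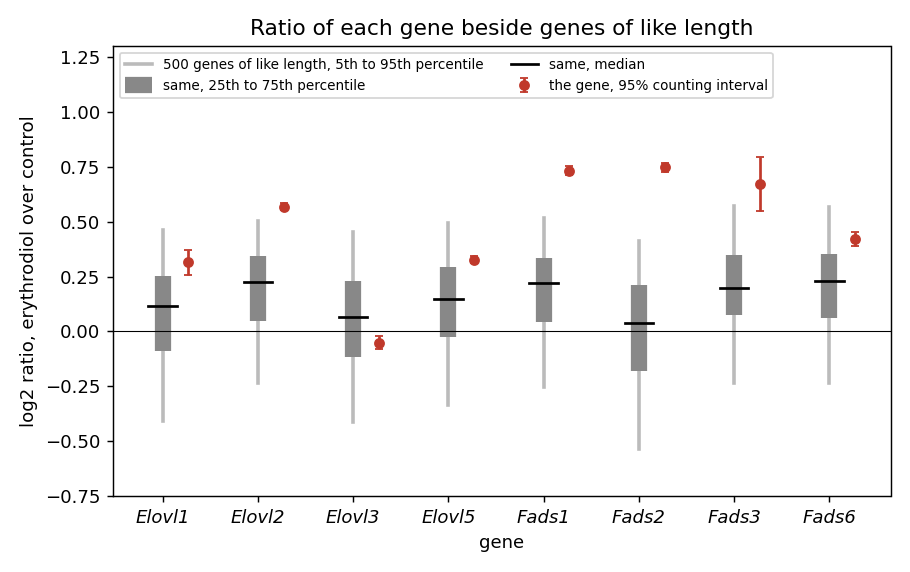
Log2 ratio of each gene (red, with its 95% counting interval) beside the 500 genes of like length (thin bar, the 5th to 95th percentile; thick bar, the 25th to 75th; black line, median). *Fads1*, *Fads2* and *Elovl2* lie above the whole bar, the point of *Fads3* too although its interval reaches into it, and *Elovl3* lies inside its thick bar.

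*Fads1*, *Fads2* and *Fads3* form a cluster on chromosome 19, so the genes around them were examined. Within 250 kb on either side of the *Fads2* start, 7 other genes had at least 100 counts, with log2 ratios from -0.65 to 0.37 and a median of 0.01. None of the 7 reached the ratio of a *Fads* gene of the cluster. *Rab3il1*, a guanine nucleotide exchange factor for Rab proteins that ends 2475 bases before *Fads3*, was at -0.14. *Fen1*, the flap endonuclease of DNA replication and the nearest gene of the table to *Fads1*, was at -0.03. *Tmem258*, a subunit of the oligosaccharyltransferase with only 428 bases, was at -0.65, and at -0.31 against genes of its length. *Myrf*, a membrane-bound transcription factor, was at 0.37 and *Dagla*, a diacylglycerol lipase, at 0.24. These became 0.10 and -0.04 against genes of like length. *Fth1*, the ferritin heavy chain, was at 0.17, and 0.31 above its like-length genes. *Incenp*, of the chromosomal passenger complex, was at 0.01. *Best1* had 7 and 4 counts.

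**Figure D4:**
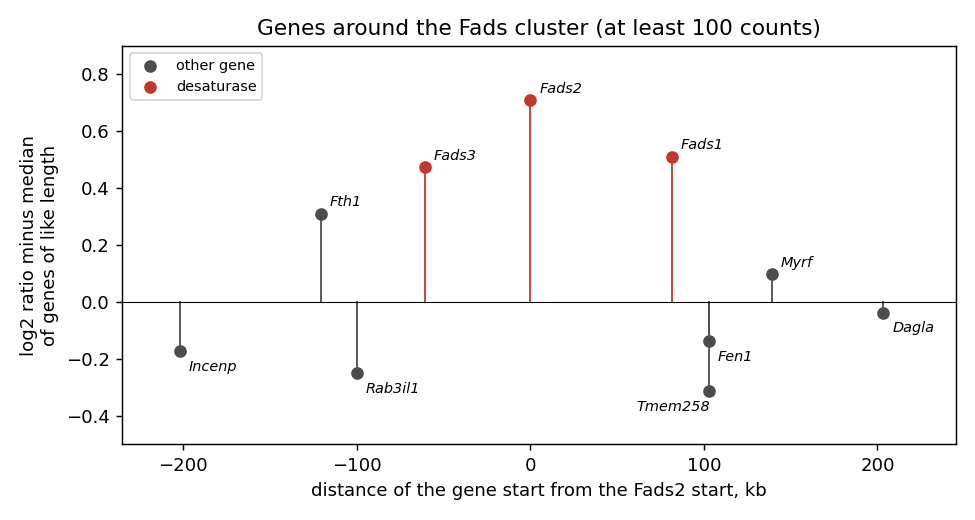
Log2 ratio minus the median of genes of like length (vertical axis) for genes with at least 100 counts by the distance of their start from the *Fads2* start in kb; red marks the 3 desaturases. *Fads3*, *Fads2* and *Fads1* stand at 0.47, 0.71 and 0.51, with *Fth1* next at 0.31 and the other 6 genes between -0.31 and 0.10.

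Genes near the remaining members gave the following values on the log2 scale. Around *Elovl1* were *Med8* at 0.15, *Tie1* at 0.24 and *Cdc20* at -0.13. *Cdc20* overlaps the end of *Elovl1* by 53 bases on the opposite strand. It had 258 and 239 counts, few beside those of *Elovl1*. Around *Fads6* were *Tmem104* at 0.21, *Fdxr* at 0.36 and *Hid1* at 0.20, with *Grin2c* and *Ush1g* at no more than 51 counts in a group. Near *Elovl2*, *Smim13* was at 0.16 and *Sycp2l* had 2 and 4 counts. Near *Elovl3* were *Nolc1* at 0.41 and *Gbf1* at 0.42, against -0.05 for *Elovl3* itself. The span of *Pitx3* overlaps that of *Elovl3* by 414 bases on the opposite strand. *Pitx3* had 89.1 and 112 counts. Both genes had counts that were not whole, as when reads are divided between features, and the other 7 members had whole counts. No gene of the table lay within 50000 bases of *Elovl5*. *Gm34771*, *Mir6993* and *Gm29917*, non-coding genes that lie within the spans of *Elovl5*, *Fads1* and *Fads3*, were not in the table.

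The assembly of the reads of all libraries added 9 coding transcripts to 5 of the 8 genes, namely 4 to *Fads2*, 2 to *Fads3* and 1 each to *Elovl3*, *Elovl5* and *Fads6*. *Elovl1*, *Elovl2* and *Fads1* had none. The assembly gave no value per group, so these are a description of transcript structure. All 4 assembled *Fads2* transcripts shared the annotated start and ran past the annotated end, with lengths of 5765 to 7084 bases and 13 or 14 exons. Their final exons lay within *Fads3*, on the other strand. Both assembled *Fads3* transcripts, of 13068 and 7832 bases, ran 4054 bases past the *Fads3* end and into *Fads2*. The annotated exons of *Fads2* and *Fads3* share no base, and the ends of the genes are 2651 bases apart. The assembled transcripts overlapped in 6871 exon bases on opposite strands, and those of *Fads3* covered 1403 bases of annotated *Fads2* exons. The library protocol is not stated to keep strand, so reads of *Fads2* and *Fads3* cannot be told apart there. *Fads2* had 34.1 times the counts of *Fads3* in the control sum. Whether the *Fads3* count holds reads from the end of *Fads2* was not tested.

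The other assembled transcripts were smaller departures. That of *Elovl5*, of 893 bases and 7 exons, ended in an exon outside any annotated *Elovl5* exon, at chr9:77980150-77980251, within the gene. That of *Elovl3* had 5 exons and 1 junction not annotated in GENCODE, and its last exon, chr19:46135306-46135694, lay in the stretch that overlaps *Pitx3*. That of *Fads6* had 7 exons and began 87 bases before the annotated start.

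The RefSeq promoter windows used here (GRCm38.p6) covered 6 of the 8 genes, as 8 windows from 250 bases before to 50 bases after a start site. *Elovl3* and *Fads1* were not among them. The windows were searched on both strands for the letters of 8 motifs. CCAAT, bound by NF-Y, a partner of SREBP at many lipid genes, was in 3 of the 8 windows and in 37.4% of all 32851 windows. GGGCGG, bound by Sp1, was in 6 of the 8 and in 35.7% of all. CACGTG, an E-box, and TGACGTCA, a cyclic AMP response element, were each in 1 of the 8, both in *Elovl5*, and in 7.15% and 1.79% of all. TATAAA was in none of the 8 and in 13.6% of all. The letters of a sterol response element, TCACNCCAC, were in none of the 8 and in 1.24% of all. The direct repeats DR1 (bound by PPAR with RXR) and DR4 (bound by LXR with RXR), searched in their strict consensus form, were also in none, and in 0.0396% and 0.0152% of all. These are matches of letters, not measured sites, and their absence says only that the letters are not in this window.

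The 120 bases before the start are shown for the 3 windows that hold the NF-Y box, those of *Fads3*, *Elovl1* and *Elovl5*. Capitals mark the NF-Y box, the Sp1 box and the other motifs searched, on either strand, and neighbouring marks can run together where motifs overlap. Capitals at the left edge belong to a motif that begins outside the bases shown. They are chr19:10041428-10041547, chr4:118427973-118428092 and chr9:77917245-77917364, all on the plus strand.
Fads3: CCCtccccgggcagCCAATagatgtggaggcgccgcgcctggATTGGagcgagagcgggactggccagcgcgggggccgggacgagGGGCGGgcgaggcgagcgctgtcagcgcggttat
Elovl1: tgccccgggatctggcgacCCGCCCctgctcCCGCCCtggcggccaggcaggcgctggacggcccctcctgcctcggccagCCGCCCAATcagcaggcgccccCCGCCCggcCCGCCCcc
Elovl5: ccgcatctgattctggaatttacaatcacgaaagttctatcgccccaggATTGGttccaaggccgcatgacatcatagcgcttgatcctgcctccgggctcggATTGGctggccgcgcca
*Fads3* and *Elovl5* each held this box in 2 places. The windows of *Fads2*, *Fads6* and *Elovl2* held none, and *Fads1* and *Elovl3* had no window. Any part of this box in the ratios was not tested.

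Each round of elongation is completed by 3 further enzymes, and 6 of the 7 genes listed for them were in the table. Of these 6, 2 were higher by at least 1.2-fold and none lower, with a median log2 ratio of 0.18, near that of all genes. Beside genes of like length 1 was higher by 1.2-fold (*Tecr*) and 1 lower (*Hacd4*, at -0.34). Of all genes, 33.7% were higher and 11.4% lower by 1.2-fold, and 9.53% and 17.7% against genes of like length. The counts of every list below have to be read against these shares. *Tecr*, the trans-2-enoyl-CoA reductase of the last step, was at 0.44 (17034 and 23500 counts), and 0.46 above genes of its length. *Hacd3*, a dehydratase of the third step, was at 0.29. *Hacd2*, a related dehydratase, was at 0.24. *Hacd4* was the only one below 0, at -0.18. *Tecrl* was not in the table.

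Among the other elongases and desaturases, 9 of 10 were in the table and 6 had at least 100 counts; of these 1 was higher and 1 lower by at least 1.2-fold. *Elovl6*, which makes 18-carbon from 16-carbon saturated chains, was at 0.53 (5321 and 7776 counts), and 0.23 above its like-length genes. *Elovl7* was at -0.95, with only 158 and 83 counts. *Scd1*, the main stearoyl-CoA desaturase of liver and by far the most abundant of these genes, had 957595 and 1028748 counts, a log2 ratio of 0.08. *Scd2* was at -0.19. Against genes of like length none of the 6 was higher by 1.2-fold and 2 were lower, *Elovl7* at -1.21 and *Scd2* at -0.46. The delta-4 sphingolipid desaturase *Degs1* was at 0.26 and *Degs2* at 0.10. *Scd4* had 28.6 and 23.9 counts, *Scd3* about 3 in each group and *Elovl4* 1 and 2. *Fads2b* was not in the table.

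Desaturases take electrons from cytochrome b5 and its reductases. Of 6 such genes, 5 had at least 100 counts, with a median of 0.31. Of these 5, 3 were higher and 1 lower by at least 1.2-fold, beside 33.7% and 11.4% of all genes. *Cyb5b*, the cytochrome b5 of the outer mitochondrial membrane, was at 0.39, and *Cyb5r3*, the main reductase, at 0.34. *Cyb5a*, the microsomal cytochrome b5 that serves the desaturases, went the other way, at -0.59 (134027 and 90395 counts). It is a short gene of 741 bases, and was 0.36 below genes of its length. Against genes of like length, none of the 5 was higher by 1.2-fold, and *Cyb5a* was lower.

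Fatty acids are activated to acyl-CoA before elongation, and the products are placed in phospholipids. Of 10 genes for these steps, 9 had at least 100 counts, with a median of 0.22. Of these 9, 3 were higher and none lower by at least 1.2-fold, beside 33.7% and 11.4% of all genes. *Acsl1*, the main long-chain acyl-CoA synthetase of liver, was at 0.43, *Acsl3* at 0.34 and *Acsl4*, which prefers arachidonic acid, at 0.32. None of the 9 was higher by 1.2-fold against genes of like length and 1 was lower, *Slc27a5*, a bile acid and very long chain acyl-CoA synthetase, at -0.34. The peroxisomal genes that shorten the last precursor to DHA had 2 of 10 higher and none lower, with a median of 0.14. *Abcd2*, a peroxisomal importer of very long acyl-CoA, was at 0.47, and 0.20 above genes of its length. With like-length genes as the reference none of the 10 was higher by 1.2-fold and 1 was lower, the thiolase and carrier gene *Scp2*, at -0.27. Of 6 ceramide synthases, which use the very long chains, 4 had at least 100 counts and none was past 1.2-fold, while against genes of like length 1 was lower (*Cers4*, at -0.27). *Cers2*, the main one of liver, was at 0.26, *Cers6* at 0.18 and *Cers5* at -0.11.

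Of 12 regulators of these genes, 6 were higher and 1 lower by at least 1.2-fold, beside 33.7% and 11.4% of all genes. The median of the 12 was 0.24. *Mlxipl*, encoding ChREBP, was at 0.60 (39373 and 60749 counts) and 0.39 above its like-length genes. *Ppara* was at 0.51 and 0.19 above genes of its length. *Srebf1*, encoding SREBP-1, was at 0.14 and *Nr1h3*, encoding the LXRalpha receptor, at 0.06, or -0.11 and -0.01 against genes of like length. *Insig2*, which holds SREBP in the endoplasmic reticulum, was at -0.62 (27992 and 18422 counts), and 0.77 below its like-length genes. *Insig1*, of the same family, went the other way, at 0.29 (15060 and 18695 counts) and 0.14 above genes of its length. Against genes of like length, 1 of the 12 was higher by 1.2-fold (*Mlxipl*) and 1 lower (*Insig2*), beside 9.53% and 17.7% of all genes.

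**Figure D5:**
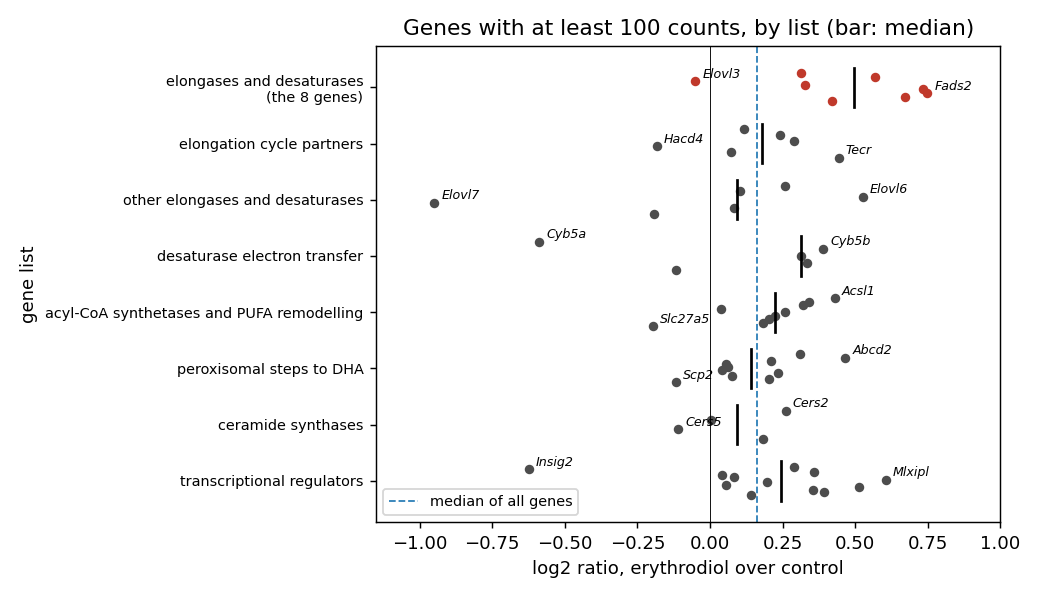
Log2 ratio of erythrodiol over control for the 8 genes (red) and for 7 lists of related genes (grey), each point 1 gene with at least 100 counts, the black bar the median of the list and the dashed line the median of all genes, 0.16. The 8 genes have a median of 0.49, and the other lists between 0.09 and 0.31.

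The mRNA of the tissue was that of liver. The 9 liver markers, such as *Alb* and *Ttr*, made up 116194 CPM in control and 116508 with erythrodiol, with log2 ratios of -0.17 to 0.38. Markers of the tissues for which *Elovl3* is best known were near 0. The 5 adipocyte markers summed to 0.610 and 0.545 CPM. Of 5 skin and sebaceous markers, 4 were in the table and summed to 2.04 and 1.41 CPM, most of it *Awat2*, with *Krt5* at 0 with erythrodiol. Of 5 further cell types, the summed markers of macrophages and bile ducts differed most in proportion between the groups. All 5 macrophage markers lay below the median of all genes, and their sum was 391 in control and 279 CPM with erythrodiol. Of the 5, 3 were lower by at least 1.2-fold, beside 11.4% of all genes. *Marco*, a scavenger receptor of Kupffer cells, was the lowest at -1.07 on the log2 scale. The 5 bile duct markers summed to 116 and 79.1 CPM, with 4 of 5 lower by as much. The 5 stellate and fibroblast markers summed to 445 and 407, the 5 endothelial markers to 139 and 154, and the 5 lymphocyte markers to 31.9 and 27.7 CPM. At 1.2-fold none of the stellate and fibroblast markers was past the limit, 1 endothelial marker was higher and 1 lymphocyte marker lower. No marker of these last 5 lists was at 0 in a group. The part of these cell types in the values of the 8 genes was not tested.

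The depth of the libraries was more even with erythrodiol than in control. Clean reads ran from 34856340 to 55244294 in the control libraries and from 47669656 to 48058606 in the erythrodiol libraries. The share mapped to genes ran from 64.33% to 81.43% and from 72.96% to 76.13%. The sums of the table, 122889032 and 124686047 counts, were close to the mapped read pairs of all 7 libraries added up. Control replicate 3 had both the fewest reads and the lowest share mapped, and it gave 9.12% of the control sum. As values per library were not used here, the ratios could not be computed without it. *Apoe*, the gene disrupted in both groups, was not at 0. It had 9403 and 8293 counts, or 60.6 and 52.7 CPM per kilobase. In the study itself, RT-PCR of hepatic RNA found no *Apoe* expression in *Apoe*-deficient mice. A sum per gene does not say from which exons the reads came, so whether they lay outside the disrupted part was not tested.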

How the data were processed

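Poly-A RNA of pooled livers was sequenced as paired reads of 100 bases on a BGISEQ-500 instrument. The submitters' processing notes name HISAT, StringTie, Cufflinks, GATK, Bowtie2 and RSEM, without versions. The deposited gene values are expected counts per gene, estimated by RSEM, which the authors summed over the 7 libraries of each group; the deposited table also gives a gene length. The authors' own log ratios, p-values and splicing comparisons in the deposited files were not used. The deposited summary of mapping gives clean read counts and the percent mapped per library, and the deposited assembly gives exons of added transcripts in GRCm38.

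Counts were divided by the group total, and log2 ratios of erythrodiol over control were taken for 13291 genes with at least 100 counts over both groups, with exact binomial (Clopper-Pearson) 95% intervals after rounding to whole counts. A gene was called at 1.2-fold (1.5-fold as a second limit). The median of the 500 genes nearest in length was subtracted for the comparison with genes of like length. Without replicate values no test was run. The procedure was first tested on simulated data. Python 3.11.15, scipy 1.17.1, pandas 2.3.3 and, for TMM factors, edgeR 4.0.16 were used; sequences and positions came from GENCODE vM21 and RefSeq, both GRCm38. Genes were matched by symbol and, failing that, by gene ID.

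The 8 genes, the lists and the markers were chosen with earlier results of these data known. The 8 genes were all named, as were other *Elovl*, *Scd* and *Degs* genes, neighbours within 50000 bases, up to 3 genes per list with the largest ratios, and any listed gene past 2-fold; some genes that this rule names are not reported here. *Fth1* and *Incenp*, further away, and *Hacd4*, *Slc27a5*, *Scp2*, *Cers4*, *Srebf1*, *Nr1h3* and *Insig1* were added after their values were seen. Alternatives were other scalings, a pseudocount, other count minimums, other fold limits and other windows of length.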

Additional observations from a re-analysis of the deposited data

Results flagged for a closer look

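Control replicate 3 had 64.33% of its clean reads mapped to genes, and the next lowest of the 7 control libraries had 74.39%. The gap was 0.588 of the whole range of the group, above the critical value of Dixon's test for 7 samples. Of 6 sets of values tested (clean reads, share mapped to genes and share mapped to a unique gene, in each group), this was the only one past that value. Chance puts about 1 in 20 single sets past it, and at least 1 of 6 sets more often than that.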

How the results depend on the processing

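No paired analysis was possible because the gene table holds 1 sum per group and the results come from no test; for the same reason no library could be left out, and a fit with a replicate block was not run. With the median of all genes set to 0, 4 of the 8 genes were at least 1.2-fold higher in place of 7, and the median log2 ratio was 0.33 in place of 0.49. With TMM factors the count was 5 and the median 0.34. The share of all genes past the same limits was not computed under these scalings. At a 1.5-fold limit the count was 3, and 1 with either of these scalings. Against genes of like length it was 1 at that limit, and 0 with GENCODE lengths (alternatives added after seeing the data). Under a 1.1-fold limit (beside 53.6% of all genes higher and 17.8% lower), 1 added count or other minimums it stayed at 7. Against genes of like length the count was 4 under windows of 200, 500 or 1000 genes, with genes of like count, and with GENCODE lengths, an alternative chosen after seeing the data. No setting put a gene lower by 1.2-fold. *Fads2* ranged from 0.57 to 0.75 over all settings, *Fads1* from 0.49 to 0.73, *Fads3* from 0.46 to 0.67, *Elovl2* from 0.33 to 0.57 and *Elovl3* from -0.21 to -0.05. The list medians, against genes of like length (also added after seeing the data), were 0.082 for the elongation partners, -0.13 for the other elongases and desaturases, 0.14 for electron transfer, 0.042 for synthetases and remodelling, 0.024 for the peroxisomal steps, -0.17 for ceramide synthases and 0.094 for the regulators. The sign turned for the other elongases and desaturases and for ceramide synthases, which follows from the subtraction of the median for their length.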
